A study of Mus musculus with 3 samples.

Results

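The guanylate-binding protein (GBP) genes encode large GTPases of the innate immune system. The 10 mouse genes described here, Gbp2, Gbp2b, Gbp3, Gbp4, Gbp5, Gbp6, Gbp7, Gbp8, Gbp9 and Gbp10, were chosen by gene symbol among 55536 annotated gene entries, with no use of measured values. They were measured in chromatin-bound RNA of macrophages grown from C57BL/6J bone marrow and stimulated for 90 min with 100 ng/ml lipid A, the part of bacterial lipopolysaccharide that Toll-like receptor 4 senses. All 3 libraries, replicates 1 to 3, belonged to this 1 group, and no unstimulated cells were analysed here, so no value below is a response to lipid A. RNA was rRNA-depleted, and the RNA input was 1000 ng for replicate 1, 250 ng for replicate 2 and 500 ng for replicate 3. Input and replicate cannot be told apart. The labels call the libraries biological replicates and give them 1 donor label, so p-values here reflect only how these samples vary, which can be technical variation.

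GBP proteins bind guanine nucleotides, assemble into coats on vacuoles that hold pathogens and on bacteria in the cytosol, and help to open them to host sensors. Several carry a lipid anchor added by prenylation. Their genes are known for strong transcription after interferon gamma and type I interferons, through gamma-activated sites (GAS) and through interferon-stimulated response elements (ISRE), where IRF factors act. In macrophages, the chromosome 3 genes are also linked to the caspase-11 response to lipopolysaccharide.

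The genes formed 2 clusters of 5 in the mm10 genome. On the forward strand of chromosome 3 lay Gbp5 (chr3:142493978-142522344), Gbp7 (chr3:142530342-142550149), Gbp3 (chr3:142560026-142573209), Gbp2b (chr3:142594847-142619179) and Gbp2 (chr3:142620602-142638008). On the reverse strand of chromosome 5 lay Gbp8 (chr5:105014150-105139540), Gbp9 (chr5:105077630-105139539), Gbp4 (chr5:105115767-105139586), Gbp10 (chr5:105215699-105239533) and Gbp6 (chr5:105270702-105293698). The annotated spans of Gbp8 and Gbp9 overlapped that of Gbp4 on the same strand, and the predicted gene Gm43302 (chr5:105214907-105293695) spanned Gbp10 and Gbp6. Counts of these overlapping genes are uncertain to the extent that shared sequence was split between them.

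Promoter sequences are shown for the chromosome 3 genes Gbp5, Gbp7, Gbp3 and Gbp2b to set the letters of known interferon motifs beside the RNA levels that follow. They come from RefSeq (GRCm38.p6, mm10), forward strand, 5′ to 3′, from 250 bases before the RefSeq start up to the first annotated exon base. Capitals mark the ISRE letters GAAANNGAAA (read here as their reverse complement), the GAS letters TTCNNNGAA, or a match to the NF-kB consensus, each searched on both strands. The 2 ISRE matches of Gbp3 overlap.
Gbp5, chr3:142496684-142496899: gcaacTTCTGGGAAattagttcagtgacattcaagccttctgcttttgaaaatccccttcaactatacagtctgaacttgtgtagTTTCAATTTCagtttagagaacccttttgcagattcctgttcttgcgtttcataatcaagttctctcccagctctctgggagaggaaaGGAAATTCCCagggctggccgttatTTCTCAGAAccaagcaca
Gbp7, chr3:142530086-142530335: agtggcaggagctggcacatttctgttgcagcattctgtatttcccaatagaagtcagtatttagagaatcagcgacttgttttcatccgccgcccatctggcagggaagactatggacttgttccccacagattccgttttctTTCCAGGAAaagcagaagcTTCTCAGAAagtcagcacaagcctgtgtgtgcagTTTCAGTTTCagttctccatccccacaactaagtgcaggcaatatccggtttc
Gbp3, chr3:142559794-142560025: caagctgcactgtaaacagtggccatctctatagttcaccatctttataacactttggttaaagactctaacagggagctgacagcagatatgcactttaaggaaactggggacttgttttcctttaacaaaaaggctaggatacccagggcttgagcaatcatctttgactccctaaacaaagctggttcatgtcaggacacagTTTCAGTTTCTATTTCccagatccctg
Gbp2b, chr3:142594597-142594846: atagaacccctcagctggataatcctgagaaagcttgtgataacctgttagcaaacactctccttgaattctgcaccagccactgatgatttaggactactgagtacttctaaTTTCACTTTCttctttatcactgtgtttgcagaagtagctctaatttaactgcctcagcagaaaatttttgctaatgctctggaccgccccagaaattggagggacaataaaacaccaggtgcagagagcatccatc

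In the windows from 250 bases before to 50 bases after the RefSeq start, ISRE letters were found for 5 of 5 chromosome 3 genes, and in 3.44% of all 32851 RefSeq promoter windows. These windows held no entry for the chromosome 5 genes, so their promoters were not searched. The ISRE letters of Gbp2, TTTCACTTTC, lay 59 bases before its RefSeq start at chr3:142620604-142620613. They lay past the first annotated exon base of Gbp2, chr3:142620602. The stretch of Gbp2 before that base held no match and is not shown. A second RefSeq start of Gbp3, at chr3:142560356, had none. The leading Gbp3 isoform by alignment, Gbp3-202 (83.3% of its TPM), is annotated from chr3:142560411, nearer to that second start. GAS letters were found for Gbp5 and Gbp7, with 2 matches each, and in 8.3% of all windows. Gbp5 alone among the 5 held an NF-kB consensus match, which 4.51% of all windows held. Gbp2b carried the same 10 ISRE letters as Gbp2, although, as given below, its RNA was almost absent. A match describes letters and is not shown to be a bound site.

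Gbp6 and Gbp10 show how alike the paralogs are. Their longest annotated coding sequences, each 1833 bases without the stop codon, differed at 30 bases (98.36% identity), and the longest identical stretch was 421 bases. The window with the densest differences, coding bases 1526 to 1645 counted from the start codon in the GENCODE M21 transcripts, held 12 of the 30, in capitals.
Gbp6: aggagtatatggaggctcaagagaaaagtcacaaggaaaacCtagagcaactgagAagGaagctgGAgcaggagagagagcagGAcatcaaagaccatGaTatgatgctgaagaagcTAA
Gbp10: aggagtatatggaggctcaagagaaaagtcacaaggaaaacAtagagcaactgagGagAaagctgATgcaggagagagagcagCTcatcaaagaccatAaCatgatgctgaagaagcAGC

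The chromosome 5 genes shared at least 90.66% of aligned coding bases in every pair, and Gbp4 and Gbp8 shared 93.1%. On chromosome 3 the closest pairs were Gbp2 with Gbp2b (82.51%) and Gbp3 with Gbp7 (79.76%). Gbp3 and Gbp7 shared 74.94% to 76.86% with the chromosome 5 genes but 68.81% and 68.9% with Gbp5, their own neighbour. The lowest pair was Gbp4 with Gbp5, at 67.73%.

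**Figure D1:**
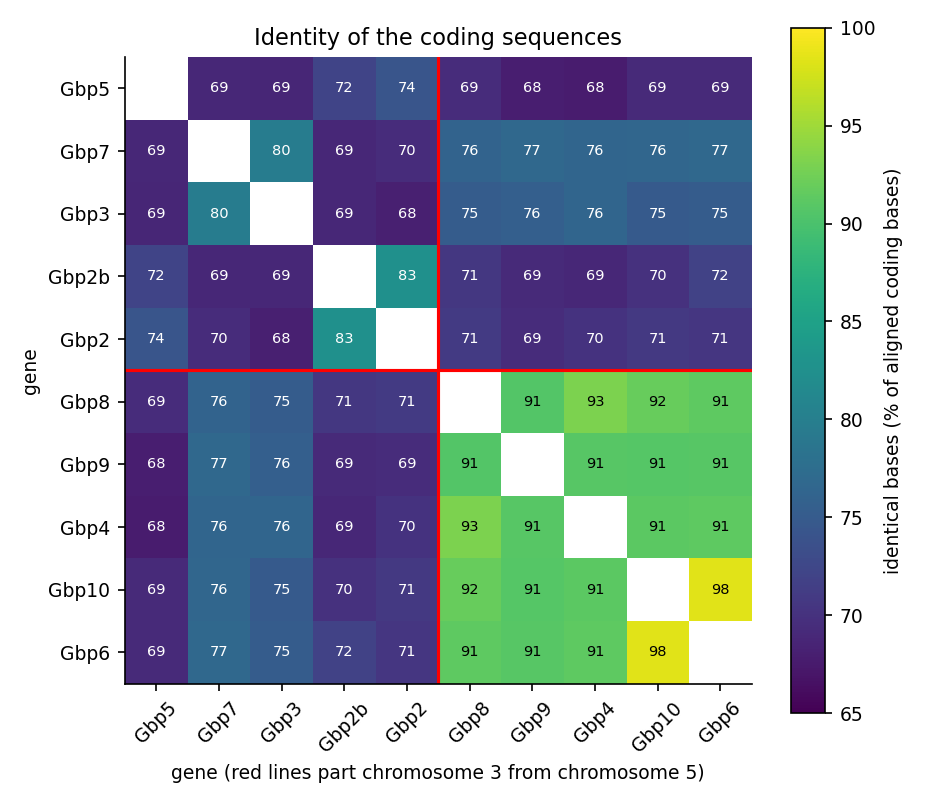
Each cell gives the percentage of identical bases among aligned coding bases for a pair of genes, with both axes in genome order and red lines between the chromosomes. The chromosome 5 block is the bright square, at 90.66% or more, and Gbp6 with Gbp10 reaches 98.36%.

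Read splitting depends on exact matches, so words of 31 bases were also counted. Of the words of Gbp10 transcripts, 89.8% also occurred in another gene; 80.8% occurred in Gbp6 and 76.7% in Gm43302, many of them in both. For Gbp6 the figure was 74.3%, with 67.8% in Gm43302 and 51.4% in Gbp10. Gbp8 shared 31.1%, Gbp9 18.3%, Gbp4 14.9% and Gbp7 14.7%. Of all words of Gbp7, 10.8% occurred in Gm43802, which lies inside it. Gbp3 (5.64%), Gbp2 (4.85%), Gbp2b (4.15%) and Gbp5 (3.1%) were almost free of shared words.

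The libraries held 11106553, 24906602 and 19753409 expected counts over annotated genes for replicates 1, 2 and 3; protein-coding genes took 7715311, 10036048 and 9964310 of them. A ribosomal RNA-like locus took 9.45%, 50.9% and 38.4% of counts. A count of 3, taken as the detection floor, corresponded to 0.12 to 0.27 CPM (counts scaled to library size). The macrophage label was checked against 10 markers. By the rule given below, 8 were called above, beside 21.3% of all tested genes. Itgam and Fcgr1 were not called and lay under the library median in every library. The summed level of the 10 was 669 to 1161 TPM (a length-scaled share of all listed transcripts). By alignment, the other marker lists summed to at most 1.44 TPM for neutrophils (Elane, Mpo, Ly6g and Retnlg at 0), 0.13 for T and NK cells (Cd3e, Ncr1, Klrb1c, Nkg7 and Gzma at 0), 0.12 for B cells, 6.72 for dendritic cells and 3.49 for stromal and endothelial cells. Without alignment the highest sums were 1.81, 22.4, 2.94, 16.5 and 17.01 TPM in the same order, and Cd3d, at 0.05 TPM or less by alignment, was listed at 21.5, 8.70 and 14.6 TPM.

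Of the 10 GBP genes, 8 had a mean expected count of at least 10 and entered the test. A level is the log2(TPM + 1) value minus the median over tested protein-coding genes of the same library, which was 5.5, 3.7 and 4.93 TPM. A gene was called above or below where limma's treat test placed its level more than 1 log2 unit from that median, at a Benjamini-Hochberg adjusted p of 0.05 over all 13434 genes tested. By this rule 7 of the 8 genes were called above, beside 21.3% of all tested genes, and 0 below, beside 21.3%. At an unadjusted limma p under 0.05 the counts were also 7 and 0, and the alignment-free values gave 6 and 0. The median level of the 8 was 2.57, beside -0.21 for all tested genes.

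Gbp5, whose product promotes inflammasome assembly, carried most of the family's RNA. Its alignment-based values were 770, 267 and 456 TPM in replicates 1, 2 and 3, from 34497, 21700 and 29080 expected counts. It was high in every library and led the family in each. Its level was 6.33 ± 0.53 (SD, n = 3; limma adjusted p = 1e-05), and by mean TPM it ranked 17 of 10530 tested protein-coding genes. Of the summed TPM of the 10 genes, which was 1112, 364.9 and 648, Gbp5 held 69.2%, 73.2% and 70.3%.

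Gbp7, linked to the assembly of the phagocyte oxidase on pathogen vacuoles, stood at 60.2, 22.9 and 43.6 TPM. Its level was 2.83 ± 0.45 (SD, n = 3; limma adjusted p = 0.00049). Gbp2, a prenylated GTPase that coats pathogen vacuoles, stood at 72.5, 19.1 and 33.0 TPM. This gave a level of 2.70 ± 0.72 (SD, n = 3; limma adjusted p = 0.0018). Gbp3, which takes part in defence with Gbp2, stood at 66.8, 19.5 and 36.3 TPM and had a level of 2.72 ± 0.63 (SD, n = 3; limma adjusted p = 0.0013). The 3 genes overlapped across the libraries and changed places with each other, and none came near Gbp5.

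The 5th gene on chromosome 3, Gbp2b, the mouse gene earlier named Gbp1, was close to silent. It had 3, 0 and 2 expected counts (0.08, 0 and 0.04 TPM), which is at or under the floor of 3 counts per library. It lies between Gbp3 and Gbp2, both called above.

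On chromosome 5, Gbp6, linked to macrophage killing of bacteria, led with 54.9, 14.7 and 32.3 TPM and a level of 2.44 ± 0.68 (SD, n = 3; limma adjusted p = 0.003). Gbp9, a less studied relative, followed with 46.5, 11.8 and 24.2 TPM and a level of 2.14 ± 0.71 (limma adjusted p = 0.0087). Gbp8, also little studied, had 24.2, 8.39 and 19.3 TPM and a level of 1.58 ± 0.51 (limma adjusted p = 0.048). By alignment Gbp6, Gbp9 and Gbp8 kept this order in every library; without alignment Gbp9 (90.6, 11.1 and 33.5 TPM) exceeded Gbp6 (64.8, 10.04 and 28.7 TPM) in each. The call for Gbp8 was the closest to the threshold, and without replicate 3 it was lost (level 1.48, limma adjusted p = 0.22), as it was with alignment-free values (level 0.78).

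Gbp4, another chromosome 5 GTPase, was the exception among the tested genes by alignment. It had 17.2 TPM in replicate 1 and 1.29 and 3.68 TPM in replicates 2 and 3, from 762, 120 and 244 expected counts. Without alignment it had 62.5, 5.38 and 11.93 TPM. These lay above the alignment-free library medians of 11.88, 4.15 and 7.63 TPM, and the level of 1.065 was not called. By alignment only replicate 1 lay above the library median. Its level was 0.04 ± 1.30 (SD, n = 3; limma adjusted p = 1), with a sign that turned under other settings (-0.69 without replicate 1), and 0.596% of tested genes had an SD at least as large. Gbp10 had 1.59, 0 and 1.71 expected counts with posterior standard deviations of 5.57, 2.86 and 2.25 counts, wider than the counts themselves, and was listed at 0.03 TPM or less.

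**Figure D2:**
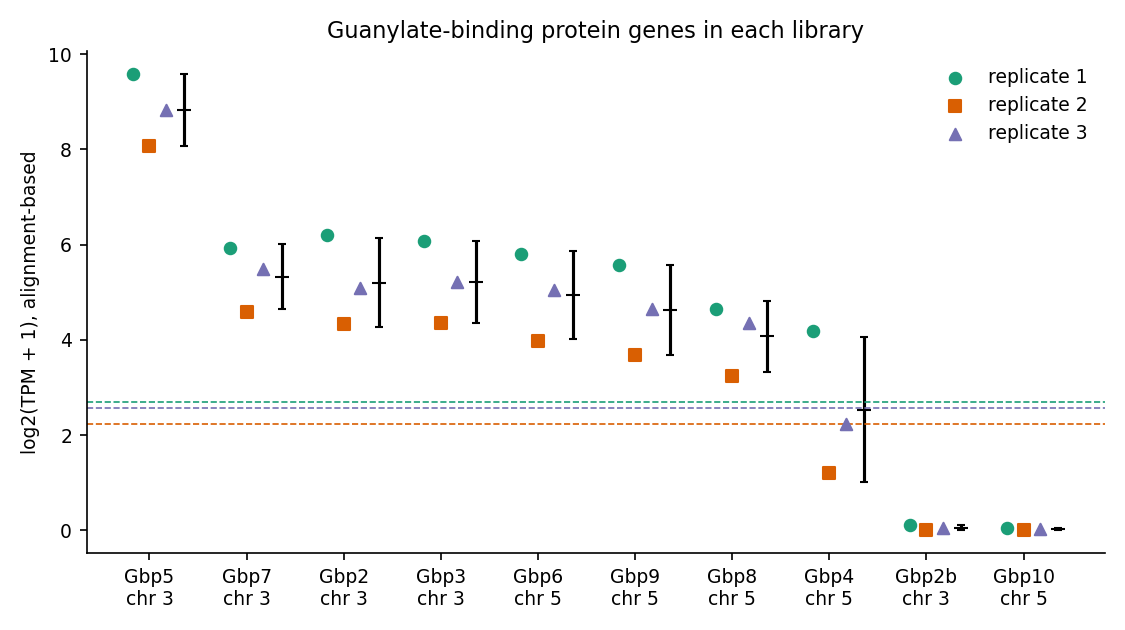
Points give alignment-based log2(TPM + 1) of each gene in replicates 1, 2 and 3, black bars the mean and SD over the 3 libraries, and dashed lines the median of tested protein-coding genes in the library of that colour. Gbp5 lies above all others, 7 genes lie above the dashed lines in every library, Gbp4 does so only in replicate 1, and Gbp2b and Gbp10 lie near 0.

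Ordered by mean TPM, the genes ran Gbp5 (498 ± 254 TPM), Gbp7 (42.2 ± 18.7), Gbp2 (41.5 ± 27.7), Gbp3 (40.9 ± 24.0), Gbp6 (34.0 ± 20.2), Gbp9 (27.5 ± 17.6), Gbp8 (17.3 ± 8.11), Gbp4 (7.40 ± 8.59), Gbp2b and Gbp10 (SD, n = 3). In 6 of the 9 neighbouring pairs the first gene was higher in all 3 libraries. On the log2(TPM + 1) scale Gbp5 exceeded Gbp7 by 3.50 ± 0.15. Gbp7 and Gbp2 (0.13 ± 0.35), Gbp2 and Gbp3 (-0.02 ± 0.13) and Gbp2b and Gbp10 (0.03 ± 0.03) did not differ beyond their SD. With 3 libraries the exact two-sided sign-flip test cannot go below p = 0.25, and that was its value for each of the 6 pairs (0.375 after Benjamini-Hochberg adjustment over the 9).

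The chromosome 3 cluster summed to 970, 329 and 569 TPM and the chromosome 5 cluster to 143, 36.2 and 79.5 TPM. The log2 ratio of these sums was 2.76, 3.18 and 2.84 (mean 2.93 ± 0.22, SD, n = 3; exact sign-flip p = 0.25, the smallest possible). Gbp5 made up most of that ratio: without it the mean was 0.58 ± 0.16, a comparison added after the values were seen. The chromosome 3 sum was the higher one in 3 of 3 libraries either way.

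All 8 tested genes had their highest level in replicate 1, as did 46.6% of all tested genes, and all 8 their lowest in replicate 2, as did 30.1%. Both held for 25.1% of tested genes. From replicate 2 to replicate 1 the TPM values differed 2.63-fold for Gbp7, 2.88-fold for Gbp5, 3.80-fold for Gbp2, 3.93-fold for Gbp9 and 13.4-fold for Gbp4. These folds include the difference of the library medians, 5.5 TPM in replicate 1 and 3.7 TPM in replicate 2. Counts scaled by trimmed-mean factors were also highest in replicate 1 and lowest in replicate 2 for all 8. Gbp5 had 2162, 1201 and 1541 CPM and Gbp4 47.8, 6.64 and 12.9 CPM. The SD of all 8 levels was above the median SD of all tested genes, 0.288, and their own median SD was 0.658. The ribosomal share ran inversely, highest in replicate 2. The summed macrophage markers were 1161, 669 and 870 TPM, but 5 of the 10 had their highest TPM in replicate 1 and 4 their lowest, among them Lyz2 (18.5, 39.4 and 27.9) and Cd14 (16.7, 42.1 and 64.3). The part of either in this spread was not tested. In bulk RNA, fewer cells of a type and less RNA per cell cannot be told apart.

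The 2 quantifiers were then compared, since both must divide reads among these paralogs. Alignment-free totals over all annotated genes were 1.65, 1.83 and 1.73 times the alignment-based totals in replicates 1, 2 and 3, so a ratio near those values means an equal share of each table. On the level scale, 0 of the 8 genes differed by more than 1 log2 unit by limma's treat test, beside 1.9% of 13427 genes higher and 0.633% lower in the alignment-free table. At an unadjusted limma p under 0.05 the counts were also 0 and 0, the smallest p being 0.415. A missed threshold does not show that the quantifiers gave equal values, and the genes one by one gave these ratios of counts.

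Gbp4 received 762, 120 and 244 counts from alignments and 2481, 721 and 985 without them. The ratio was 3.26, 6.01 and 4.03, above the library ratio in each library. On the level scale the difference was 1.03 ± 0.28 (SD, n = 3; limma adjusted p = 1), and the mean was 7.40 TPM by alignment and 26.6 TPM without. Gbp2 (ratios 2.37, 1.91 and 1.88) lay above the library ratio in each library, and Gbp3 (2.01, 1.79 and 1.72) only in replicate 1. Gbp5 (1.40, 1.44 and 1.41), Gbp7 (1.41, 1.44 and 1.36), Gbp6 (1.38, 1.39 and 1.38), Gbp9 (1.38, 1.43 and 1.38) and Gbp8 (1.38, 1.30 and 1.25) lay below them in every library. Their level differences ran from -0.80 ± 0.07 for Gbp8 to -0.11 ± 0.09 for Gbp9, beside a median of -0.23 over all tested genes. On the level scale Gbp3 was higher without alignment in every library (0.22, 0.18 and 0.13). Gbp2 was so only in replicate 1 (0.11, -0.06 and -0.18). Count ratios and levels thus differed for Gbp2 and Gbp3.

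**Figure D3:**
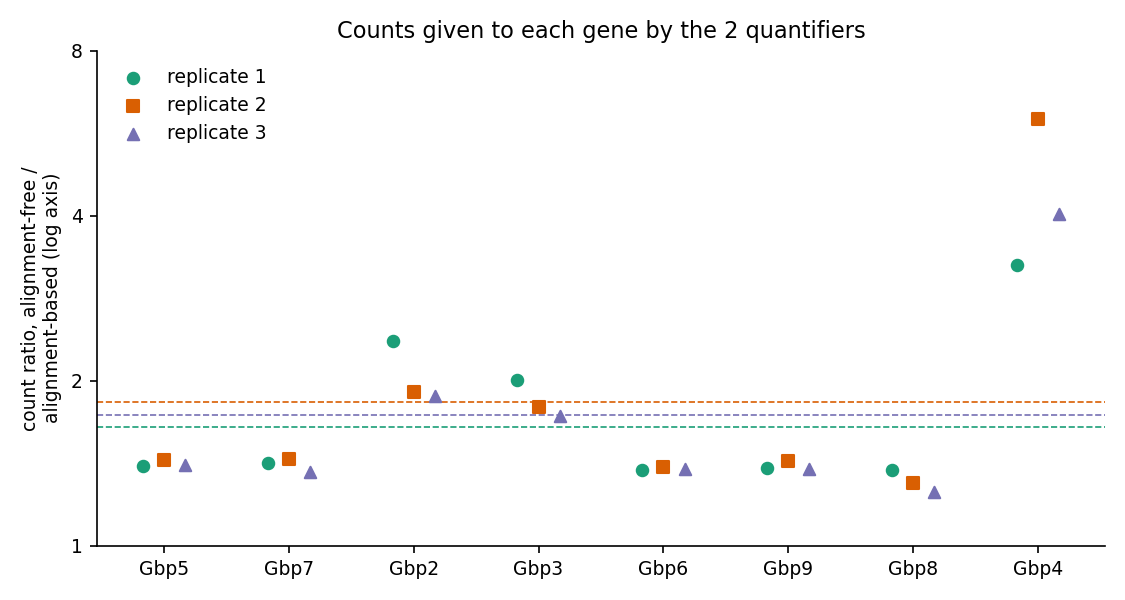
Points give, on a log axis, the alignment-free count divided by the alignment-based count of each tested gene in replicates 1, 2 and 3, and dashed lines the same ratio of the library totals. Gbp4 lies above the lines in every library, at 3.26 to 6.01, and 5 genes lie below them.

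Close or overlapping genes were also summed, so that reads split among them stay in the sum. Gbp6 with Gbp10 and Gm43302 gave ratios of 1.40, 1.40 and 1.39, almost those of Gbp6 alone. Gbp10 had 69.7, 14.8 and 22.8 alignment-free counts, at most 1.26 TPM, beside 3956, 1858 and 3235 for Gbp6. In both tables Gbp6 thus held nearly all counts of the pair. Gbp4 with Gbp8 and Gbp9, whose annotated spans overlap, gave 1.69, 1.69 and 1.56. Of that sum Gbp4 held 762 of 4601, 120 of 1870 and 244 of 3099 alignment-based counts. It held 2481 of 7787, 721 of 3166 and 985 of 4824 alignment-free counts, so its higher ratio raised that of the sum. Alone, Gbp8 (1.38, 1.30 and 1.25) and Gbp9 (1.38, 1.43 and 1.38) lay lower.

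The order of the genes also depended on the quantifier. Alignment-free mean values placed Gbp3 (79.4 TPM) and Gbp2 (73.1 TPM) above Gbp7 (46.6 TPM), Gbp9 (45.1 TPM) above Gbp6 (34.5 TPM) and Gbp4 (26.6 TPM) above Gbp8 (16.2 TPM). Gbp5 was first in both (556 TPM without alignment), and Gbp2b stayed at 0.07 TPM or less.

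The tables list annotated isoforms, and their biotypes show what kind of RNA the gene values hold. Shares were first taken of the summed TPM of the 10 genes, most of which came from Gbp5. Protein-coding isoforms held 43.3% ± 2.67 of that sum (SD, n = 3), retained-intron isoforms 27.3% ± 9.87, nonsense-mediated decay isoforms 22.1% ± 4.24 and processed transcripts 7.30% ± 5.48. Without alignment the coding share was 36.8% ± 2.47. These are shares assigned by the quantifiers, and unspliced RNA has no entry of its own in the annotation.

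Gbp5 was divided among 4 kinds. Its single coding isoform Gbp5-201 held 32.9%, 27.5% and 34.9% of its TPM, and the retained-intron isoform Gbp5-205 held 45.4%, 25.6% and 24.8%. The decay isoform Gbp5-202 held 20.2%, 30.9% and 28.3%. The processed transcript Gbp5-204, which begins upstream of the others, held 0.083%, 13.4% and 9.96% by alignment but 23.9%, 33.2% and 36.4% without it, so these ranges did not overlap.

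Gbp7, Gbp2 and Gbp3 were mostly coding. Gbp7 has only coding isoforms in the annotation, and Gbp7-201 held 82.6%, 40.3% and 51.6% of it, with the rest in Gbp7-202. Gbp2-201 held 99.7% ± 0.51 of Gbp2 by alignment and 84.7% ± 3.86 without, the rest lying in the decay isoform Gbp2-202. Coding isoforms held 96.9% ± 1.55 of Gbp3, but Gbp3-202 held 83.3% by alignment and 47.2% without, and the short Gbp3-205 held 0.93% and 29.3%. Gbp3-203 held 11.4% and 8.10%.

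In the 4 tested chromosome 5 genes coding isoforms were the smaller part on average, holding 30.2% ± 11.7 of Gbp6, 35.0% ± 24.6 of Gbp9, 33.4% ± 8.89 of Gbp8 and 23.6% ± 10.6 of Gbp4. The coding isoform of Gbp6, Gbp6-201, stood beside the decay isoform Gbp6-203 at 31.4% ± 4.29. Gbp9 had 2 coding isoforms, Gbp9-201 (23.2% ± 14.2) and Gbp9-202 (11.9% ± 12.0), and a processed transcript, Gbp9-204, at 2.02% by alignment and 32.2% without. In Gbp8 the processed transcript Gbp8-204 was the leading isoform at 56.2% ± 13.4, ahead of the coding Gbp8-201 (31.4% ± 5.32) and Gbp8-202 (2.06% ± 3.58). In Gbp4 the decay isoform Gbp4-202 held 39.0% ± 12.5 by alignment and 10.3% ± 6.35 without, whereas the retained-intron isoform Gbp4-205 held 37.5% ± 4.47 and 57.9% ± 5.32. The coding Gbp4-206 held 14.5% ± 5.41 and 22.6% ± 1.14. For comparison, the median coding share over 10508 protein-coding genes was 56.5% by alignment.

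**Figure D4:**
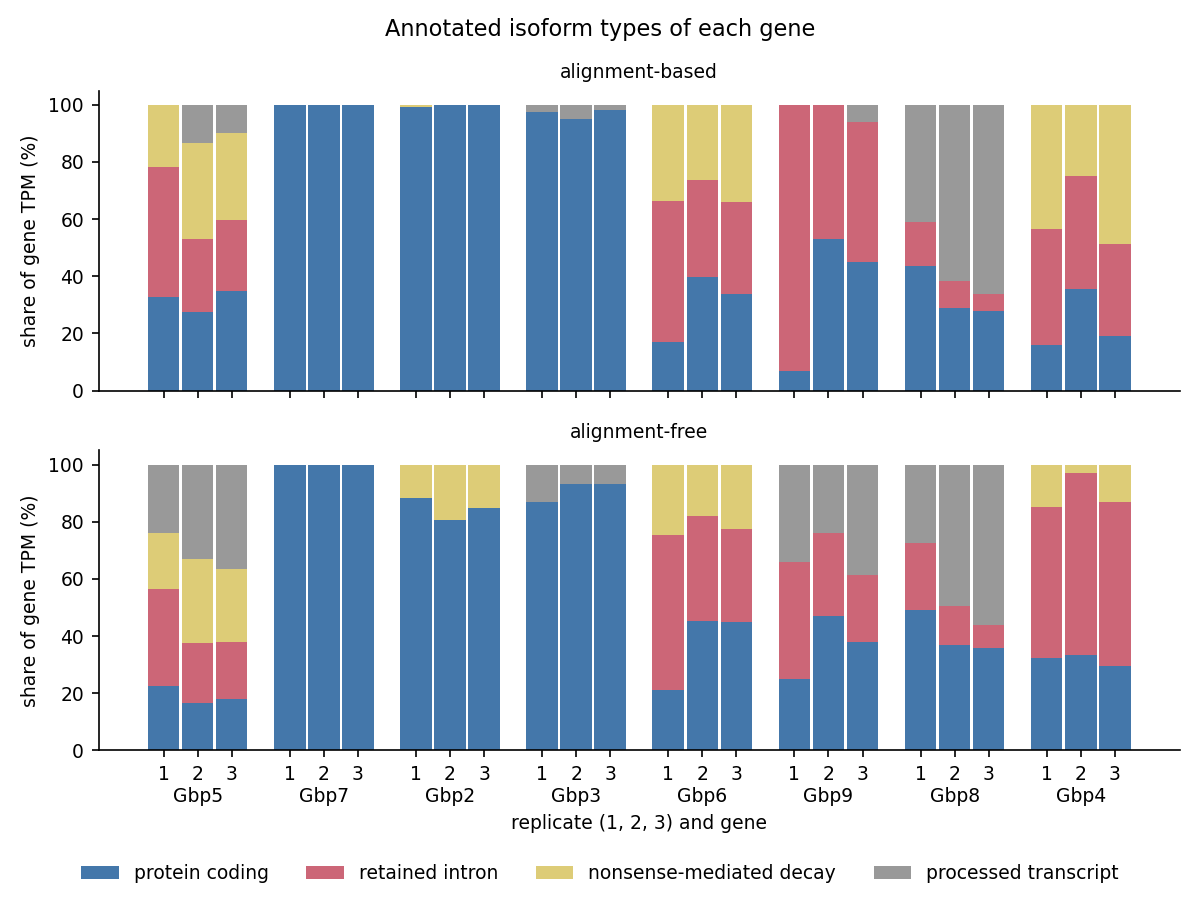
Stacked bars give the percentage of each tested gene's TPM held by each annotated isoform type in replicates 1, 2 and 3, by alignment (top) and without (bottom). Gbp7, Gbp2 and Gbp3 are nearly all coding, and the other 5 genes are divided, with coding shares of 23.6% to 35.0% on average by alignment.

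Among the 5 tested genes with a retained-intron isoform, its share was highest in replicate 1 in 5 of 5 by alignment, beside 63.6% of 6574 genes, and in 4 of 5 without, beside 58.3% of 6575 genes. Gbp9-203 held 93.0%, 47.0% and 48.9% of Gbp9 by alignment and 41.1%, 28.7% and 23.5% without. Gbp6-202 held 49.1%, 34.0% and 32.2%, and Gbp8-203 15.4%, 9.67% and 6.06%. The exception without alignment was Gbp4, at 52.8%, 63.4% and 57.6%. The median over all such genes moved in the same direction, from 51.5% in replicate 1 to 41.8% and 40.6% in replicates 2 and 3.

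**Figure D5:**
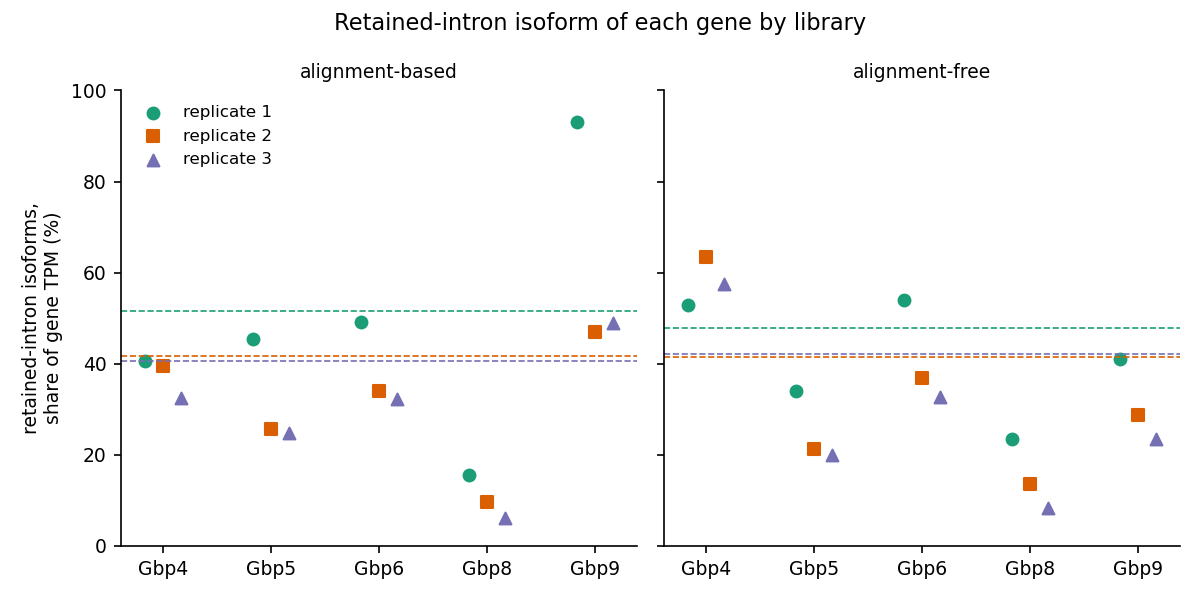
Points give the percentage of each gene's TPM held by its retained-intron isoform in replicates 1, 2 and 3, by alignment (left) and without (right), and dashed lines the median over all tested protein-coding genes with such an isoform. Replicate 1 is the highest for all 5 genes on the left, up to 93.0% for Gbp9, and for all but Gbp4 on the right.

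Genes that act with the GBP proteins were taken from 6 lists of 54 genes, of which 46 were tested, 21 called above and 2 below, beside 21.3% of all tested genes in each direction. Of the 14 interferon signalling genes 11 were called above, and the list median level was 3.48, beside -0.21 for all tested genes. Irf1, a transcription factor that acts at ISRE letters, had 466, 224 and 289 TPM (level 5.79 ± 0.33). Stat2, a transcription factor of the type I interferon pathway, had a level of 5.16 ± 0.15. The receptor genes Ifnar1 and Ifnar2 were called above (3.55 and 3.42), whereas Ifngr1 (1.33), Ifngr2 (0.67) and the feedback inhibitor Socs1 (-0.24) were not called. For Ifngr2 the values depended on the quantifier. It had 10.5, 4.63 and 10.3 TPM by alignment and 74.5, 17.8 and 47.9 TPM without. The alignment-free library medians were 11.88, 4.15 and 7.63 TPM.

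Of 7 interferon ligands 1 was tested: Ifnb1, with 8.32, 2.91 and 4.18 TPM and a level of 0.02 ± 0.43, was not called. Ifng, Ifnl2 and Ifnl3 were listed at 0 in every library, and Ifna1, Ifna2 and Ifna4 at 0.2 TPM or less. Of the inflammasome genes 6 of 8 were called above, with Casp4, which encodes the lipopolysaccharide sensor caspase-11, at 506, 91.3 and 180 TPM. The adaptor gene Pycard (level -0.23) and Il18 (1.23) were not called.

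Among the immunity-related GTPases, partners of the GBP proteins on vacuoles, 1 of 8 tested genes, Irgm1, was called above (2.33 ± 1.09) and 1, Tgtp1, below (-2.07 ± 0.31). All 8 had their highest level in replicate 1, and the 9th gene of the list, Irgc1, was under the count minimum. Tgtp1 and Tgtp2 are near-identical copies, so their split is uncertain. Of the 9 tested ATG8 conjugation genes, which direct GBP proteins to vacuoles, Atg16l1 (2.57) and Gabarap (1.50) were called above, and Map1lc3a, the 10th of the list, was under the count minimum. Among 6 prenylation enzymes Pggt1b (1.57 ± 0.50) was called above and Fntb (-1.92 ± 0.28) below. The place of Fntb depended on the quantifier. It had 0.38, 0.33 and 0.81 TPM by alignment and 8.23, 4.15 and 6.71 TPM without. The alignment-free library medians were 11.88, 4.15 and 7.63 TPM.

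Neighbouring entries of the loci were mostly near 0. The polymorphic pseudogene Gbp11 had 0.52, 0.03 and 0.18 TPM, Gbp2-ps and Gm5870 were listed at 0, and Gm43302 was listed at 0.08 TPM or less. Gm43802, which lies inside Gbp7, had 6.72, 0.85 and 1.17 TPM. The microRNA gene Mir6381, on the opposite strand inside Gbp2, was listed at 0 by alignment and at a mean of 69.9 TPM without. No 31-base word of the annotated Gbp2 transcripts occurred in it. As no strand setting is given, its reads and those of unspliced Gbp2 RNA cannot be told apart. Pdlim5, a gene beside the chromosome 3 cluster and no GBP, had 40.8, 16.3 and 28.9 TPM and was called above (2.30 ± 0.41).

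By root-mean-square distance between levels over the 3 libraries, the genes nearest to Gbp5 among 10522 compared were Zc3h7a (0.0729 log2 units), Tnfaip3 (0.199), Cd44 (0.329), Gas7 (0.348) and Ddx5 (0.366). Zc3h7a had 757, 289 and 441 TPM, beside 770, 267 and 456 for Gbp5. With 3 libraries of 1 group, this describes similar height and spread and nothing more.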

How the data were processed

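Chromatin-bound RNA was sequenced in 3 libraries. Per the deposited description files, both quantifications used mm10 and GENCODE M21; for the aligner, versions and strand settings: not given in the sources used here. The authors deposited expected counts and TPM per gene and transcript from transcriptome alignments (RSEM-style columns), unscaled estimated counts and TPM per transcript without alignment (kallisto-style columns), and a posterior standard deviation of each count, a score in counts. TPM is scaled over all listed transcripts.

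Alignment-free TPM was summed per gene. Genes averaging 10 expected counts or more were tested with limma 3.58.1 (treat, bound 1 log2 unit) on log2(TPM + 1) minus the median of tested protein-coding genes of the library, with Benjamini-Hochberg adjustment over all genes; quantifier differences were tested alike, per library. No count model was the main test because the question is a level per length; edgeR 4.0.16 and DESeq2 1.42.0 factors served as alternatives, with expected counts rounded. The fit was tested on simulated data. Ratios used exact sign-flip tests. Coding sequences (the longest per gene) were aligned globally with Biopython 1.88, gaps left out. Named were all 10 members, other Gbp genes and neighbours at the loci, the highest and lowest gene by mean TPM and unmeasured genes of each list, the 5 genes nearest to Gbp5, and isoforms with at least 10% of their gene in either table; further list genes were named after their values were seen. The members and lists were chosen with earlier results of these data known. Alternatives were another minimum, pseudocount, estimate, reference, normalization and quantifier, and each replicate left out. The values of 1 list gene are not reported here.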

Additional observations from a re-analysis of the deposited data

How the results depend on the processing

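Of 88 alternative levels of the 8 tested genes 74 kept direction and side of the threshold, 8 lost the call and 6 turned sign. All 6 were of Gbp4, not called under any: -0.093 with DESeq2 factors, -0.11 with edgeR factors, -1.03 at a minimum of 100, -0.038 with posterior means, -0.078 with pseudocount 0.1 and -0.69 without replicate 1 (leaving out a replicate gave -0.69 to 0.57). Of 56 quantifier differences, none past the threshold, 4 turned sign: Gbp2 at 0.040 (minimum of 100), 0.16 (posterior means) and 0.026 (without replicate 3; -0.12 to 0.026 leaving out each replicate), and Gbp9 at 0.080 (posterior means). At a minimum of 100 mean counts, where the reference median is higher, 2 genes rather than 7 were called above (Gbp5 and Gbp7), and other settings gave 6 or 7. With no minimum, 2 rather than 0 were called below, Gbp2b and Gbp10. Pathway genes called above ranged from 15 to 31 around 21; those called below were 1 rather than 2 with alignment-free values, with the minimum of 100 and with posterior means, and 3 with DESeq2 or edgeR factors, pseudocount 0.1 or no minimum. The call for Gbp8 was also lost with posterior means (level 1.38, limma adjusted p = 0.14). Leaving out a replicate gave 6 to 7 genes above, 0 below, 19 to 21 pathway genes above, 2 below, a cluster ratio of 2.80 to 3.01, 6 to 7 ordered pairs and a coding share of 41.8% to 44.5%. The coding share was 36.8% without alignment and 40.2% by expected counts. The cluster ratio was 1.14 by medians and 2.76 without alignment, where 4 pairs kept their order in all libraries. The cause of these shifts was not tested. Samples could not be paired between groups because the libraries form 1 group. The comparisons of quantifiers, clusters and neighbouring genes were made within each library. By alignment Gbp2b and Gbp10 lie at or under the floor of 3 counts, which limits what can be said of them. Without alignment Gbp10 had 69.7, 14.8 and 22.8 counts, and their split from Gbp6 is uncertain.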
